A study of Homo sapiens with 4 samples.

Results

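The expression of 10 immediate early and growth-response genes was examined in HepG2 cells: the AP-1 subunit genes FOS, FOSL2, JUN, JUNB and JUND, the zinc finger transcription factor gene EGR1, the early response genes IER2 and IER3, the MAP kinase phosphatase gene DUSP1, and MYC. They were chosen by their gene names, and all were found among the 58302 genes of the deposited tables. HepG2 is an established human liver cancer line, which the study describes as hepatocellular carcinoma. The study sequenced polyadenylated RNA from wild-type HepG2 cells kept in MEM with 10% FBS, sodium pyruvate and nonessential amino acids, and asked how melatonin altered gene expression. One group received 1 mM melatonin and the other received DMSO, and each was collected at 24 h and at 48 h. Each of the 4 conditions was 1 library of 1 cell line, so no difference between conditions had a replicate check and no p-value was computed.

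Immediate early genes are transcribed within minutes of a growth factor, serum or stress signal, without new protein synthesis, mainly through ERK, JNK and p38 MAP kinases acting on factors already bound at their promoters. JUN and FOS proteins pair to form AP-1, EGR1 binds GC-rich promoters, and DUSP1 closes the loop by dephosphorylating the kinases. MYC pairs with MAX to drive ribosome and nucleotide synthesis, and in the liver JUN and MYC are best known for regeneration and for hepatocellular carcinoma.

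Levels are given as FPKM, in which the fragments of a gene are divided by its length and by a library size, so that genes can be compared. Dividing out the gene length returned whole reads for 100% of values within 0.01 read, and the 4 libraries held 21616676 to 23086025 reads on genes. The library sizes implied by FPKM were below those sums in every library, from 18357838 (DMSO at 24 h) to 22205042 (melatonin at 48 h). The 95% intervals (exact Poisson for a level, exact binomial for a ratio) come from those reads and cover counting error only. All 8 hepatocyte markers were detected, with ALB at 2717 to 3343 FPKM, but they were not steady. At 48 h with melatonin 1 was more than 2-fold higher, TTR (50.6 FPKM with DMSO, 256 FPKM with melatonin, log2 fold change 2.31), and 1 lower, AFP (1902 and 782 FPKM, -1.28), both larger than for any of the 10 genes, and the ratio was 0.525 for TF and 0.709 for APOA1. Their part in the results was not tested. A set of 8 fibroblast, endothelial and leukocyte markers summed to 1.29 to 5.51 FPKM, with COL1A2 at 0 in every library and PDGFRB the only one at 1 FPKM or more in any. With melatonin over time TTR and PDGFRB were higher, at log2 fold changes of 2.42 and 1.59. Mitochondrially encoded transcripts took 20.0% (DMSO) and 16.6% (melatonin) of reads at 24 h, then 9.77% and 11.9% at 48 h. Library sizes that left those transcripts out turned the direction of 0 of the 10 genes in any comparison. In bulk RNA, fewer cells expressing a gene and less RNA per cell cannot be told apart.

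All 10 genes were expressed in every library, from 1.66 FPKM for FOS to 91.0 FPKM for MYC. IER3, MYC and JUND held the top 3 places in each library, FOSL2 came next to last and FOS last. Between the highest and lowest library a gene differed by 1.34-fold (JUND) to 2.14-fold (EGR1). Some neighbours in the order had overlapping intervals, among them IER2 and JUNB with DMSO at 24 h, JUND and IER3 with melatonin at 24 h, MYC and IER3 with DMSO at 48 h, and JUND and MYC with melatonin at 48 h.

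**Figure D1:**
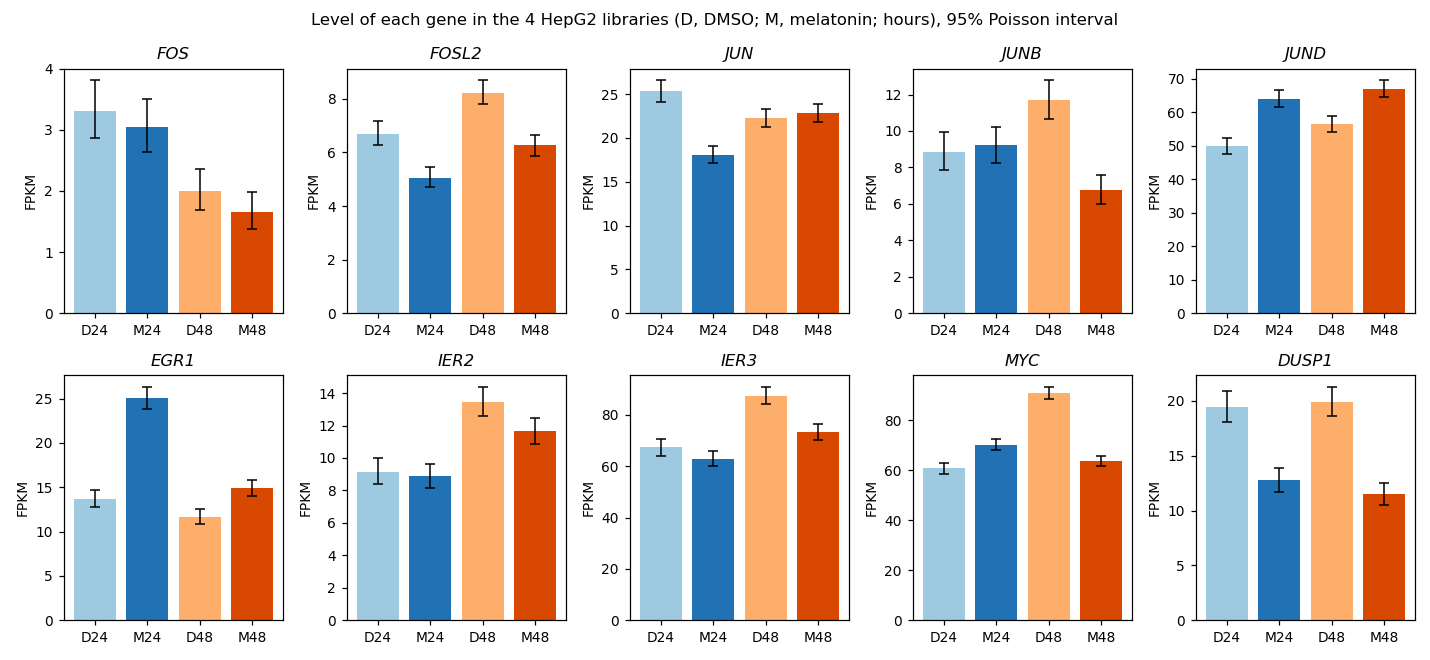
Level of each of the 10 genes in FPKM (vertical axis, from 0, with its own scale for each gene) in the 4 libraries, D for DMSO and M for melatonin at 24 or 48 h; bars are single libraries and error bars are 95% Poisson intervals. EGR1 stood highest with melatonin at 24 h at 25.0 FPKM, and MYC stood highest with DMSO at 48 h at 91.0 FPKM.

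No gene of the 10 passed 2-fold with melatonin at either time. Across all genes with at least 1 FPKM in either library, 1.42% were at least 2-fold higher and 2.93% at least 2-fold lower at 24 h (13582 genes), and 2.39% and 3.32% at 48 h (13805 genes), on the log2(FPKM + 1) scale used for every log2 fold change here. At 1.5-fold, 1 gene was higher at 24 h (EGR1) and 0 were lower, beside 4.02% and 7.53% of all genes, although the plain ratio of DUSP1 was 0.655 and past that fold without the pseudocount. At 48 h, 2 were lower at that fold (JUNB and DUSP1) and 0 were higher, beside 10.0% and 8.62% of all genes. The median log2 fold change of the 10 was -0.07 at 24 h and -0.22 at 48 h, and that of all tested genes was 0.02 and -0.02.

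By counting error alone, 3 genes were higher (EGR1, JUND, MYC) and 3 lower (DUSP1, JUN, FOSL2) with melatonin at 24 h. Of 10325 genes with at least 100 reads in both libraries, 34.0% were higher and 23.4% lower by the same criterion. At 48 h, 2 were higher (EGR1, JUND) and 6 lower (DUSP1, JUNB, MYC, FOSL2, IER3, IER2), beside 33.0% and 36.2% of 10530 genes. A ratio interval that leaves out 1 was therefore common among genes of this depth, and it says nothing of the spread between cultures.

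**Figure D2:**
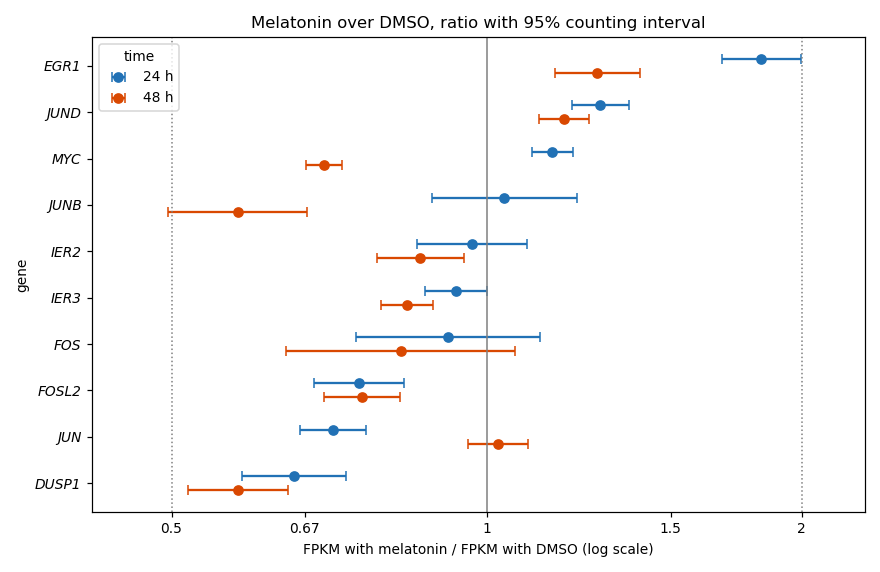
Ratio of FPKM with melatonin to FPKM with DMSO (horizontal axis, log scale) for each gene at 24 h (blue) and 48 h (orange); points are single ratios, bars are 95% counting intervals, and dotted lines mark 2-fold. EGR1 and JUND lay above 1 and DUSP1 and FOSL2 below 1 at both times, with intervals that left out 1. FOS, IER2 and IER3 also lay below 1 at both times, with intervals that held 1 at 24 h. MYC lay above 1 at 24 h (1.16) and below it at 48 h (0.699).

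FOS, the founding FOS-family member and a rapid partner of JUN (ENSG00000170345, hg38 chr14:75278774-75282230, plus strand), was measured at 3.31 FPKM with DMSO and 3.05 FPKM with melatonin at 24 h, and at 2.00 and 1.66 FPKM at 48 h. Both melatonin libraries lay just below their own controls, and both 48 h libraries lay below both 24 h libraries. The melatonin to DMSO ratio was 0.919 (0.751 to 1.12) at 24 h and 0.828 (0.643 to 1.06) at 48 h, so that with 119 to 200 reads a library neither difference was detectable at this depth. The 24 h direction also turned when FPKM was rescaled to TPM. Between 24 h and 48 h the DMSO ratio was 0.603 (0.483 to 0.753) and the melatonin ratio 0.544 (0.429 to 0.685).

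FOSL2, which encodes the FOS-family protein FRA-2 (ENSG00000075426, chr2:28392448-28417312, plus strand), was lower with melatonin at both times. Its level was 6.71 FPKM with DMSO and 5.06 FPKM with melatonin at 24 h, and 8.23 and 6.26 FPKM at 48 h. The ratio was 0.755 (0.684 to 0.834) at 24 h and 0.761 (0.700 to 0.827) at 48 h, or log2 fold changes of -0.35 and -0.35, and the log2 ratios at the 2 times differed by 0.01 (-0.17 to 0.20). At 24 h, 6.94% of the 10325 genes were at least as low.

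The FOS-family transcripts together summed to 16.1 FPKM with DMSO and 13.1 FPKM with melatonin at 24 h, and to 19.9 and 12.0 FPKM at 48 h. FOSL2 made up 41.8% (38.9 to 44.7) and 38.5% (35.6 to 41.5) of that sum at 24 h, and 41.3% (38.9 to 43.7) and 52.3% (49.0 to 55.7) at 48 h. FOSL1, which encodes FRA-1, was the other large share, at 34.9% and 36.6% at 24 h and 44.9% and 32.5% at 48 h. FOS held 10.0% to 23.2% and FOSB 1.29% to 3.79%.

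JUN, the central AP-1 subunit and a target of JNK (ENSG00000177606, chr1:58780788-58784327, minus strand), was measured at 25.3 FPKM with DMSO and 18.1 FPKM with melatonin at 24 h, and at 22.2 and 22.8 FPKM at 48 h. The melatonin library at 24 h was the low one and the other 3 lay within 22.2 to 25.3 FPKM. The ratio was 0.713 (0.663 to 0.767) at 24 h, where 3.94% of genes were at least as low, and 1.03 (0.959 to 1.10) at 48 h, a direction that turned under TPM. The log2 ratio was 0.52 higher at 48 h than at 24 h (0.38 to 0.67).

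JUNB, an AP-1 subunit that often opposes JUN (ENSG00000171223, chr19:12791496-12793315, plus strand), was measured at 8.86 FPKM with DMSO and 9.21 FPKM with melatonin at 24 h, and at 11.7 and 6.76 FPKM at 48 h. The 24 h libraries were close together, and the 48 h libraries were the highest and the lowest of the 4. The ratio was 1.04 (0.887 to 1.22) at 24 h and 0.579 (0.496 to 0.673) at 48 h, where 3.58% of 10530 genes were at least as low. JUNB lies wholly within the span of HOOK2 on the opposite strand. HOOK2 had 461, 630, 455 and 604 reads in the same order of libraries, JUNB had 296, 340, 466 and 273, and whether the counting used strand was not given in the sources used here.

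JUND, the JUN-family member that quiescent cells also express (ENSG00000130522, chr19:18279760-18281622, minus strand), was higher with melatonin at both times. Its level was 49.9 FPKM with DMSO and 64.0 FPKM with melatonin at 24 h, and 56.5 and 67.0 FPKM at 48 h, so both melatonin libraries lay above both controls. The ratio was 1.28 (1.21 to 1.37) at 24 h and 1.19 (1.12 to 1.25) at 48 h, and 8.39% of genes were at least as high at 24 h.

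Within the JUN family, which summed to 84.0 to 96.5 FPKM, the JUND share was larger with melatonin at both times. At 24 h JUND made up 59.3% (57.7 to 60.9) of it in the control and 70.1% (68.8 to 71.5) with melatonin. At 48 h it made up 62.5% (61.1 to 63.9) and 69.4% (68.1 to 70.6). The counterpart at 24 h was JUN, at 30.1% with DMSO and 19.8% with melatonin, while JUNB held 10.5% and 10.1%. At 48 h it was JUNB, at 12.9% and 7.00%, while JUN held 24.6% and 23.6%.

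**Figure D3:**
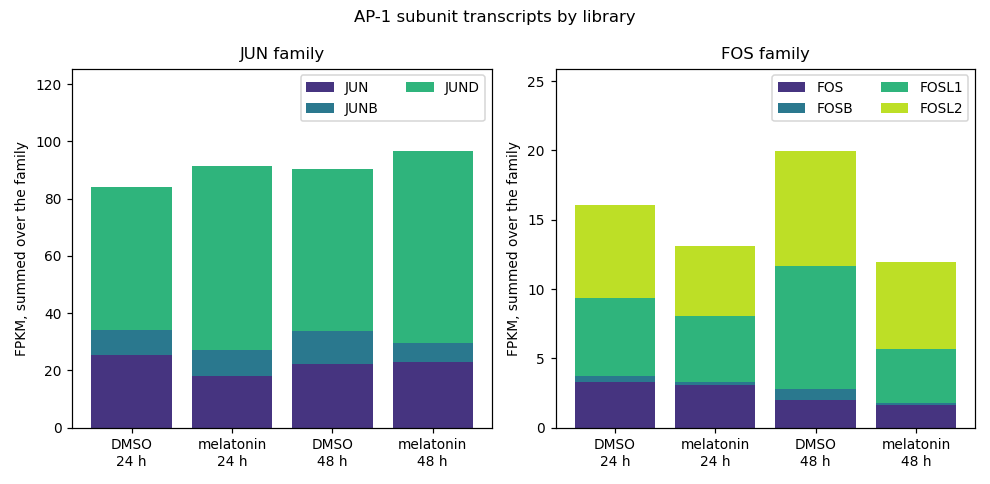
FPKM summed over the JUN family (left panel) and over the FOS family (right panel) in the 4 libraries, with the coloured segments of each bar giving single genes; no error is drawn. JUND was the largest segment of the JUN family in each library (59.3% to 70.1%), and the FOS family was lowest with melatonin at 48 h (12.0 FPKM).

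EGR1, an early growth response factor induced through ERK (ENSG00000120738, chr5:138465490-138469315, plus strand), had the widest range of the 10 genes. Its level was 13.7 FPKM with DMSO (788 reads) and 25.0 FPKM with melatonin (1593 reads) at 24 h, and 11.7 and 14.9 FPKM at 48 h. Melatonin at 24 h stood apart, and each melatonin library was above its own control. The ratio was 1.83 (1.68 to 2.00) at 24 h, a log2 fold change of 0.83, and 33 of the 10325 genes, or 0.32%, EGR1 included, were at least as high. At 48 h the ratio was 1.28 (1.16 to 1.40), and the log2 ratio was lower than at 24 h by 0.52 (-0.70 to -0.34). Rescaled to TPM, the 24 h log2 fold change was 1.02, past 2-fold, and over the other scalings it lay between 0.80 and 0.88. EGR1 made up 96.2% to 99.3% of the EGR-family FPKM in each library.

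The 250 bases before the EGR1 start were printed from RefSeq (GRCh38.p14, chr5:138465229-138465478, plus strand). This window was the only one searched that held a CArG box, the site of serum response factor (SRF), which drives many immediate early genes. The capitals mark the CArG boxes, whose first bases lay at -105 and -83.
EGR1: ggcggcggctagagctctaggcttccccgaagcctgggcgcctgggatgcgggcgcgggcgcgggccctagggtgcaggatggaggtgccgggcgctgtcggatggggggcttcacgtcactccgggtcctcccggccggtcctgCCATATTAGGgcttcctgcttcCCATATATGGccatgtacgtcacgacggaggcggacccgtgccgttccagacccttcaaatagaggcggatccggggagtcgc
The CArG box occurred in 1.16% of 35116 promoter windows of the same length and in 1 of the 8 windows searched for these genes, those of FOS, FOSL2, JUN, JUNB, JUND, EGR1, IER2 and DUSP1. A match is a description of the letters and not of binding. Only exact matches within 250 bases of the start were sought, here and for the motifs below. A window without a match therefore says nothing of sites further upstream or of inexact sites.

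DUSP1, a nuclear phosphatase that inactivates JNK, p38 and ERK (ENSG00000120129, chr5:172768090-172771195, minus strand), was lower with melatonin at both times. Its level was 19.5 FPKM with DMSO and 12.7 FPKM with melatonin at 24 h, and 19.9 and 11.5 FPKM at 48 h. As deposited, the 2 controls were nearly level with each other, with a ratio of 1.02 between times, and both melatonin libraries lay below them. Over 5 scalings the log2 fold change from the 24 h to the 48 h control lay between 0.02 and 0.53. The melatonin ratio was 0.655 (0.584 to 0.734) at 24 h and 0.578 (0.518 to 0.646) at 48 h, or log2 fold changes of -0.57 and -0.74, and 2.49% and 3.20% of genes were at least as low. The log2 ratios of the 2 times differed by -0.18 (-0.41 to 0.05).

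The promoters of DUSP1 and JUND were the 2 of the 8 that held a full cAMP response element (CRE), the palindrome TGACGTCA, which 1.65% of all windows held. They are shown because DUSP1 lay below 1 and JUND above 1 with melatonin at both times, beside FOS, whose ratio interval held 1 at both. Capitals mark the CRE and its core TGACG on either strand in DUSP1 and JUND, the E-box CACGTG in DUSP1, and the core and the TATA box TATAAA in FOS. The windows were chr5:172771196-172771445 (minus strand), chr19:18281623-18281872 (minus strand) and chr14:75278578-75278827 (plus strand) of GRCh38.p14, from RefSeq.
DUSP1: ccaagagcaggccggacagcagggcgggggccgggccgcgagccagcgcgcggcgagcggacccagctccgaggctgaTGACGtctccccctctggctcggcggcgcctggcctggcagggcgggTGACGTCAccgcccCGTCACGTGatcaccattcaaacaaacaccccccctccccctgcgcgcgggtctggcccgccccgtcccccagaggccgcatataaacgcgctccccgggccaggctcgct
JUND: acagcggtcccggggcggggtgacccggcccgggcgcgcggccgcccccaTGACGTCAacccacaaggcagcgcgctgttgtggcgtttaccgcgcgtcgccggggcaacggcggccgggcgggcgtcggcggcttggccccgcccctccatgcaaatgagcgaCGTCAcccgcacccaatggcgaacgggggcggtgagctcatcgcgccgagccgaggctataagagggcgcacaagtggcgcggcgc
FOS: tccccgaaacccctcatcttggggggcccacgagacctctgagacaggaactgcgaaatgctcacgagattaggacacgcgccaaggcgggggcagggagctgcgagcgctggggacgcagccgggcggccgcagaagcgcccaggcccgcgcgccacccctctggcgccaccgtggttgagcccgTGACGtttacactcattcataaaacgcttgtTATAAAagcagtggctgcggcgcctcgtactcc
The CRE began at -125 in DUSP1 and at -200 in JUND. A CRE contains the core on both strands, and the core occurred in 8 of the 8 windows and in 21.2% of all windows. In DUSP1 the E-box overlaps a core, in JUN a GC box does, and the E-box was found in 1 of the 8 windows and in 6.34% of all. The AP-1 site (TGACTCA or TGAGTCA) was found in 0 of the 8 windows and in 4.20% of all, the EGR1 site (GCGTGGGCG or GCGGGGGCG) in 0 and in 5.37%, the TATA box in 3 and in 10.7%, the GC box GGGCGG in 6 and in 42.6%, and CCAAT in 3 and in 32.0%, each searched on both strands.

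IER2, a nuclear early response protein (ENSG00000160888, chr19:13150415-13154908, plus strand), was measured at 9.15 FPKM with DMSO and 8.86 FPKM with melatonin at 24 h, and at 13.5 and 11.6 FPKM at 48 h. The 48 h libraries were the higher pair in both arms. The melatonin ratio was 0.968 (0.857 to 1.09) at 24 h, which was not detectable as a difference and turned direction under TPM and under a plain read sum, and 0.865 (0.785 to 0.952) at 48 h.

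IER3, an early response gene that modulates ERK signalling and cell survival (ENSG00000137331, chr6:30743199-30744554, minus strand), was measured at 67.3 FPKM with DMSO and 63.0 FPKM with melatonin at 24 h, and at 87.4 and 73.4 FPKM at 48 h. Each melatonin library lay below its own control. The ratio was 0.935 (0.874 to 1.00) at 24 h, where the direction turned under TPM, and 0.840 (0.794 to 0.890) at 48 h. Both intervals are narrow because 1676 to 2599 reads stood behind each value.

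MYC, the transcription factor of cell growth (ENSG00000136997, chr8:127735434-127741434, plus strand), was the only one of the 10 genes on opposite sides of its control at the 2 times beyond counting error. Its level was 60.8 FPKM with DMSO and 70.2 FPKM with melatonin at 24 h, and 91.0 and 63.6 FPKM at 48 h. The control at 48 h stood above the other 3 libraries, which lay within 60.8 to 70.2 FPKM. The melatonin ratio was 1.16 (1.10 to 1.21) at 24 h and 0.699 (0.672 to 0.727) at 48 h, where 7.69% of genes were at least as low. The log2 ratio was 0.72 lower at 48 h than at 24 h, and of the 10085 genes that had 100 or more reads in each of the 4 libraries 8.65% were likewise on opposite sides. MYC made up 99.2% to 99.8% of the MYC-family FPKM, and MYCN had 0 reads in 3 libraries and 1 read in the other.

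The log2 ratio at 48 h minus that at 24 h was 0.52 for JUN, -0.85 for JUNB, -0.52 for EGR1, -0.15 for IER3 and -0.72 for MYC. The counting intervals of these differences left out 0. Those of FOS, FOSL2, JUND, IER2 and DUSP1 held 0. The share of all genes that differed likewise was not computed, so how common such a difference was at this depth is not known. Rescaling shifts the difference of every gene by the same amount, downward under TPM, so which genes fall on each side depends on the scaling.

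**Figure D4:**
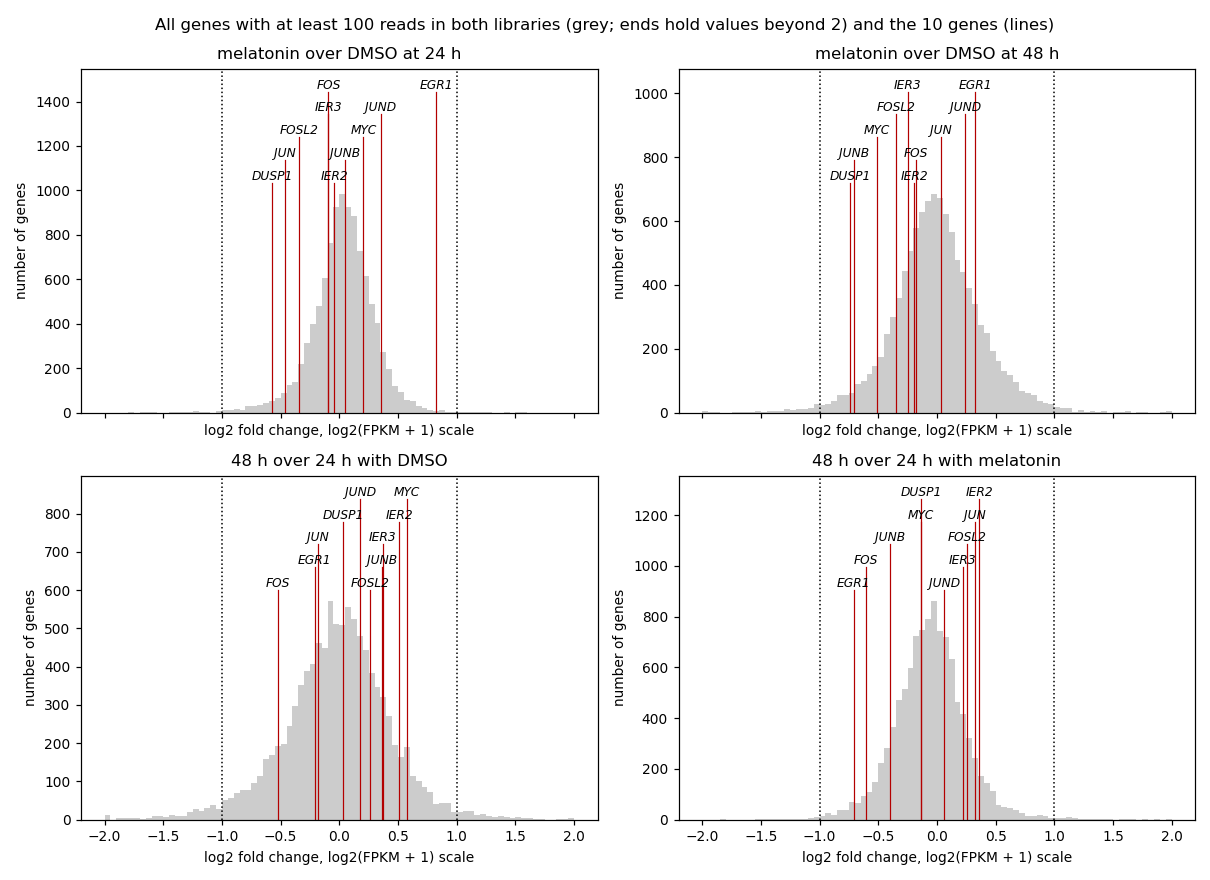
Log2 fold changes of all genes with at least 100 reads in both libraries (grey histograms, vertical axis in number of genes) for the 4 comparisons, with red lines at the values of the 10 genes and dotted lines at 2-fold. At 24 h with melatonin EGR1 lay in the thin upper tail (0.83), and no line crossed the dotted limits in any panel.

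Time in culture was examined within each arm. With DMSO, 7 of the 10 genes were higher at 48 h than at 24 h and 3 were lower, with a median log2 fold change of 0.22 beside 0.00 over 13854 genes. None passed 2-fold or 1.5-fold, beside 3.50% and 4.24% of all genes at least 2-fold higher and lower, and 11.2% and 12.6% at 1.5-fold. FOS missed 1.5-fold only through the pseudocount, its plain ratio being 0.603. The ratio was 1.5 (1.44 to 1.56) for MYC, 1.47 (1.32 to 1.64) for IER2 and 1.32 (1.14 to 1.53) for JUNB. By counting error 6 were higher and 3 lower (FOS, JUN, EGR1), beside 35.8% and 37.5% of genes. Under TPM, which moved the median of all genes by 0.46, JUN and EGR1 turned direction. IER2 and MYC then passed 2-fold, beside 2947 genes higher and 704 lower over all genes. Of the 2-fold calls over all genes, 45.2% were higher as deposited, 80.7% under TPM and 61.8% under a plain read sum.

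With melatonin, 5 of the 10 genes were higher at 48 h and 5 lower, with a median of -0.04, the value also of all 13489 genes. None passed 2-fold, beside 2.45% of genes higher and 1.71% lower. At 1.5-fold 2 were lower, EGR1 at a ratio of 0.596 (0.550 to 0.645) and FOS at 0.544, and 0 were higher, beside 6.05% and 6.76%. By counting error 4 were higher (JUN, IER2, FOSL2, IER3) and 4 lower (FOS, EGR1, JUNB, MYC), beside 23.6% and 39.1%. MYC and DUSP1 turned direction under TPM, which raised the share of higher 2-fold calls over all genes from 58.9% to 72.9%. The DMSO library at 48 h was the highest of the 4 for 6 of the 10 genes (FOSL2, JUNB, IER2, IER3, MYC, DUSP1), beside 33.1% of 14612 genes, and it enters both the 48 h melatonin comparison and the DMSO time comparison.

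Around the 10 genes, 11 lists of pathway genes were counted. At 24 h none of their genes passed 2-fold with melatonin, though DUSP5 and DUSP6 did under TPM (1.00 and 1.09) and DUSP10 did at a pseudocount of 0.1 (-1.14). LDHA, of the MYC target list, did when fold changes were centred on the median (-1.01). At 48 h the other AP-1 and small MAF subunits stood lowest, with 3 of 10 tested genes lower (FOSL1, MAFF, MAFG), 0 higher and a median of -0.64, beside 3.32% lower, 2.39% higher and a median of -0.02 over all genes.
FOSL1 was measured at 8.94 FPKM with DMSO and 3.89 FPKM with melatonin at 48 h, a ratio of 0.435 (0.360 to 0.525), and MAFG, a partner of NRF2, at 40.0 and 18.8 FPKM. With library sizes that left out mitochondrial genes only MAFF of the 3 passed 2-fold, and under a plain read sum MAFF and MAFG did. ATF3 also passed at a pseudocount of 0.1 (-1.01). FOSB, below 1 FPKM in every library and so not tested as deposited, passed under TPM (-1.17). FOSL1, MAFF and MAFG were also highest with DMSO at 48 h, and MAFG was 2.24-fold higher there than with DMSO at 24 h.

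Among 29 other immediate early genes tested at 48 h, PLK2 was lower (ratio 0.371, 0.309 to 0.446), 0 were higher and the median was -0.29, so that the count was near the 3.32% of all genes. With DMSO over time 3 were higher, the growth arrest genes GADD45A and GADD45B and the early response gene IER5, and CITED2 was lower, beside 3.50% and 4.24% of all genes. CITED2 no longer passed under TPM or a plain read sum. Under TPM KLF4, BTG1, PLK2, SERTAD1 and PPP1R15A also passed, all higher, beside 2947 genes higher and 704 lower over all genes. With melatonin over time CTGF, a matricellular YAP target, was higher at a ratio of 2.09. In the MAP kinase phosphatases, DUSP8 was the 1 of 7 past 2-fold at 48 h (ratio 0.370, 0.307 to 0.443). For melatonin at 48 h, PLK2 and DUSP8 no longer passed under a plain read sum, nor did PLK2 with library sizes that left out mitochondrial genes.

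DUSP6, DUSP5 and SPRY4, negative regulators of ERK signalling named after their values were seen, were higher with melatonin at both times, below 2-fold on the log2(FPKM + 1) scale. Other genes of their lists lay the other way, among them DUSP10 (ratios of 0.416 and 0.521 at 24 h and 48 h), DUSP8 (0.590 and 0.370), DUSP16 (0.919 and 0.796) and SPRY1 (0.852 and 0.768). DUSP6 was measured at 11.2 FPKM with DMSO and 21.6 FPKM with melatonin at 24 h and at 15.0 and 24.2 FPKM at 48 h, DUSP5 at 1.81, 3.64, 2.65 and 4.62 FPKM and SPRY4 at 15.5, 26.6, 16.8 and 24.6 FPKM in the same order. The medians of the MAP kinase phosphatase list were 0.00 at 24 h and -0.13 at 48 h, those of the ERK cascade list -0.03 and -0.14, those of the ERK feedback list 0.12 and -0.22, and those of the JNK and p38 list 0.09 and -0.03.

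For MYC, 10 network partners (MAX, MLX and proteins that pair with them) had a median of 0.07 at 24 h and -0.30 at 48 h, with 0 past 2-fold. The 19 tested MYC target genes had medians of 0.01 and -0.06 with melatonin, with 0 past 2-fold. LDHA, which makes lactate from pyruvate, came nearest to it at 24 h, with a ratio of 0.503 (0.493 to 0.513). Its level was 237 FPKM with DMSO and 119 FPKM with melatonin at that time. LDHA was also lower with DMSO over time, at a log2 fold change of -1.61. Of 8 genes for MYC stability and co-factors, SKP2 and AURKA were lower with melatonin over time, short of 2-fold at -0.65 and -0.76. With DMSO over time both passed 2-fold, at -1.13 and -1.06, beside 4.24% of all genes at least 2-fold lower. Neither passed under TPM or a plain read sum, where PIM1 was the 1 gene past 2-fold, higher at 1.37 and 1.02. The medians with melatonin were -0.01 and 0.15. The SRF list had medians of 0.10 and -0.16. The EGR list had medians of 0.19 and 0.04, from its 2 tested genes, the co-repressors NAB1 and NAB2. Its EGR-family genes were below 1 FPKM in every library. TPM moved the median of all genes by 0.15 at 24 h, more than the size of any list median at that time but that of the EGR list.

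**Figure D5:**
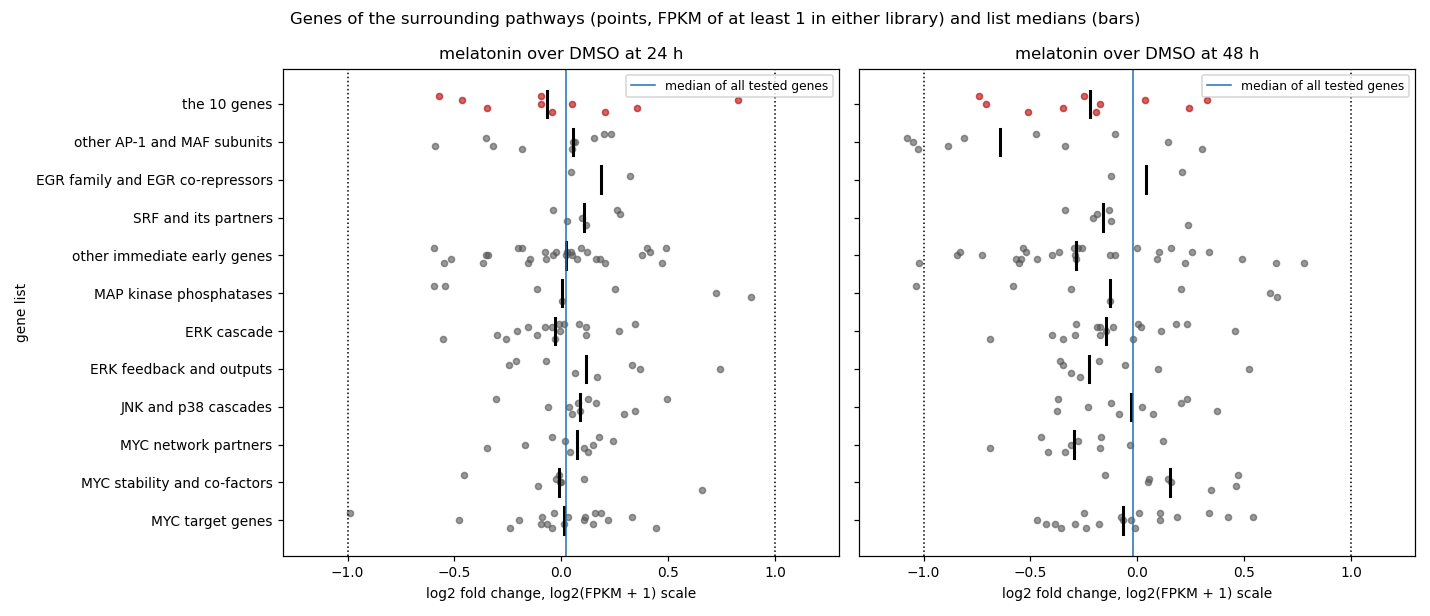
Log2 fold change with melatonin (horizontal axes) of each tested gene of the 10 (red) and of the 11 pathway lists (grey points) at 24 h (left panel) and 48 h (right panel); black bars are list medians, the blue line is the median of all tested genes and dotted lines mark 2-fold. The other AP-1 and MAF subunits had the lowest list median at 48 h (-0.64).

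The genes nearest to EGR1 in pattern over the 4 libraries, by Euclidean distance of centred log2(FPKM + 1) among 10525 protein-coding genes, were THOC6 (0.138), AGA (0.160), SUMF2 (0.171), ACSL3 (0.195) and SRXN1 (0.195). Those nearest to MYC were TES (0.0516), PPP1R15B (0.0574), SPIN2B (0.0605), RNF216 (0.0612) and PPP4R2 (0.0614). With 4 libraries as the points, such likeness is a description.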

How the data were processed

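Polyadenylated RNA of 4 HepG2 libraries was sequenced as read pairs. According to the study's methods the reads were mapped to hg38 with MapSplice and expression was taken with Cufflinks, and the submitters' processing notes also list Bowtie2 2.0.6, TopHat2 2.0.9, Cufflinks 2.1.1 and Cuffdiff 2.1.1 without roles. The authors deposited FPKM per gene with other columns for gene length and position, and how the library size was set is not given in the sources used here. The reads were recovered from FPKM and gene length (Python 3.11.15, pandas 2.3.3, scipy 1.17.1). Fold changes are log2 of FPKM plus a pseudocount of 1, a scale that understates changes of low genes. Genes with at least 1 FPKM in either library were tested, and 2-fold was the threshold. Intervals of family shares and of differences between times used a normal approximation to the counting error. The scripts were checked on simulated data.

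The 10 genes and all lists were chosen with earlier results of these data known. All 10 are named. From the other lists those past 2-fold are named, at most 3 in each direction. DUSP5, DUSP6, DUSP10, DUSP16, SPRY1, SPRY4, PIM1, TF and APOA1 were added after their values were seen. So were ATF3, FOSB, KLF4, BTG1, SERTAD1, PPP1R15A, NAB1 and NAB2. The minimum of 100 reads for ranks and intervals was also chosen after seeing the data. Promoter windows were the 250 bases before each start in a RefSeq table (GRCh38.p14). Of the 10 genes, 8 windows were searched; those of IER3 and MYC were not used here. Alternatives were a pseudocount of 0.1, no filter, a minimum of 5 FPKM, 1.5-fold, TPM, 2 other library sizes, median centring and the plain ratio.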

Additional observations from a re-analysis of the deposited data

Results flagged for a closer look

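MYC was singled out because its melatonin to DMSO ratio lay above 1 at 24 h (1.16) and below 1 at 48 h (0.699), with neither counting interval holding 1. The log2 ratio at 48 h minus that at 24 h was -0.72. With 1 library a condition this difference was not tested, and under TPM it was -0.95. Of the 4 MYC levels, that with DMSO at 48 h (91.0 FPKM) stood apart from the others (60.8 to 70.2 FPKM).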

How the results depend on the processing

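No paired analysis was possible because each condition had 1 library. Of the values that answer a comparison, recomputed under the alternatives, 58 stayed within their limit and 10 moved. None of the 10 genes was past 2-fold as deposited, so a turn of direction past the threshold could not arise. Under TPM the median of the 10 changed sign at 24 h and with melatonin over time, from -0.07 and -0.04 as deposited. With library sizes set to the summed reads it changed sign with melatonin over time. At 1.5-fold the number of the 10 genes past the threshold was 1 with melatonin at 24 h, 2 at 48 h and 2 with melatonin over time, instead of 0. Rescaled to TPM it was 1 at 24 h (EGR1) and 2 with DMSO over time (IER2, MYC), and the median log2 fold change was 0.10 at 24 h, 0.72 with DMSO over time and 0.24 with melatonin over time. With library sizes set to the summed reads the medians over time were 0.37 with DMSO and 0.0923 with melatonin. Under TPM the median of all genes moved by 0.15 at 24 h, -0.04 at 48 h, 0.46 with DMSO and 0.27 with melatonin over time.

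The share of all tested genes past 2-fold depended on the pseudocount and the filter. At a pseudocount of 0.1 it was 8.89% at 24 h, 12.1% at 48 h, 15.0% with DMSO over time and 8.60% with melatonin over time. With no filter it was 1.01%, 1.35%, 1.84% and 0.96% in the same order, and under TPM 9.21%, 13.5%, 20.3% and 11.8%. FOS, with 119 to 200 reads a library, had the widest counting intervals at 24 h and 48 h relative to its ratios.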
